A study of Mus musculus with 2 samples.

Results

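Interferon gamma, its receptor and the proximal signalling machinery were described here through 8 genes, found as the rows of both expression tables whose gene name is Ifng, Ifngr1, Ifngr2, Jak1, Jak2, Irf1, Socs1 or Socs3. These are 8 of 34400 gene identifiers in the 2 tables together, and all 8 were present in both. Transcripts were counted in single cells of 2 libraries, made from tumours of the established mouse colorectal cancer line CT26. In the antibody group mice received SLC7A11-Ab, an antibody to the cystine transporter xCT, dosed at 10 mg/kg every 2 days. The control group received control IgG at the same dose and interval. Dosing began at a tumour volume of 50 to 100 mm³ in both groups. Mouse strain, age and the number of animals behind each library are not given in the sources used here, and the implantation site is described inconsistently. Each group is a single library (1 per group), so differences lack a replicate check and no test across samples was possible. The 95% intervals are exact Poisson, binomial or conditional binomial intervals that cover counting error only.

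Interferon gamma is a cytokine made chiefly by activated T cells and natural killer (NK) cells. It binds a receptor built of a ligand-binding chain, IFNGR1, and a signalling chain, IFNGR2, which carry the kinases JAK1 and JAK2. The kinases activate transcription factors that bind GAS elements and induce IRF1, itself a transcription factor of the second wave of interferon gamma genes. SOCS1 and SOCS3 are feedback inhibitors: SOCS1 acts on the JAK kinases downstream of interferon receptors, and SOCS3 acts mainly on receptors that use the gp130 chain.

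The antibody library held 143658800 unique molecular identifiers (UMIs, counted transcripts) in 12153 barcodes, and the control library 129044329 in 13910 barcodes. The cell filter and the removal of doublets left 10897 antibody cells (median 7201 UMIs) and 12326 control cells (median 7052 UMIs). The tables shared 39 barcode sequences. Cells were assigned to 16 classes from marker transcripts, none of which is one of the 8 genes. A class is called by its markers and the ending "-like", and the decorin-high class by its leading gene. Levels are given as CPM, a gene's counts scaled to the total UMIs of its class. Y-linked transcripts stood at 3.27 and 2.07 CPM in decorin-high cells of the antibody and control library and at 2.04 and 0.745 CPM in tumour-like cells of the antibody and control library, but at 110 to 335 CPM in the other 7 classes compared, fibroblast-like cells included. The labels give the cell type as goblet cells. The 8 goblet markers summed to 89 counts in antibody tumour-like cells and 120 counts in control tumour-like cells, or 1.16 CPM in the antibody library and 1.75 CPM in the control library, so the label was not borne out by the transcripts. Of the 16 classes, 9 had at least 50 cells in each library and were compared.

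Ifng (ENSMUSG00000055170; GRCm38 chromosome 10, 118441046 to 118445892, plus strand) was carried by T and NK cells in both libraries. Kept cells held 1500 Ifng UMIs in the antibody library and 141 in the control library. T-like and NK-like cells together held 1331 of them in the antibody library (88.7%, interval 87.0 to 90.3) and 134 in the control library (95.04%, interval 90.04 to 97.98). CD8 T-like cells alone held 78.9% in the antibody library (interval 76.8 to 81.0) and 70.9% in the control library (interval 62.7 to 78.3). NK-like cells held 4.27% in the antibody library (interval 3.30 to 5.42) and 11.3% in the control library (interval 6.63 to 17.8). CD8 T-like cells were therefore the main carriers in both tumours, with NK-like cells and T-like cells of other kinds far behind.

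Over all kept cells Ifng stood at 12.6 CPM in the antibody library and 1.36 CPM in the control library, a log2 ratio of 3.21 (interval 2.96 to 3.47) or 9.24-fold. The number of cells was the larger factor. T-like and NK-like cells made up 992 of 10897 antibody cells (9.10%) and 246 of 12326 control cells (2.00%), 4.56-fold more by share. They held 2.36% of all UMIs in the antibody library and 0.478% in the control library. Within these cells Ifng stood at 475 CPM in the antibody library and 270.9 CPM in the control library, a log2 ratio of 0.81 (interval 0.55 to 1.08) or 1.75-fold. The make-up of this pool differed too. CD8 T-like cells were 512 of its 992 antibody cells and 86 of its 246 control cells. Within CD8 T-like cells alone the fold was 1.28, and within NK-like cells 1.455 with a log2 interval, -0.23 to 1.46, that included 0. In T-like cells outside the CD8, CD4 and regulatory classes it was 2.96. The abundance of T and NK cells thus moved the total more than the level over the pool did, and that level mixes classes in different shares.

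**Figure D1:**
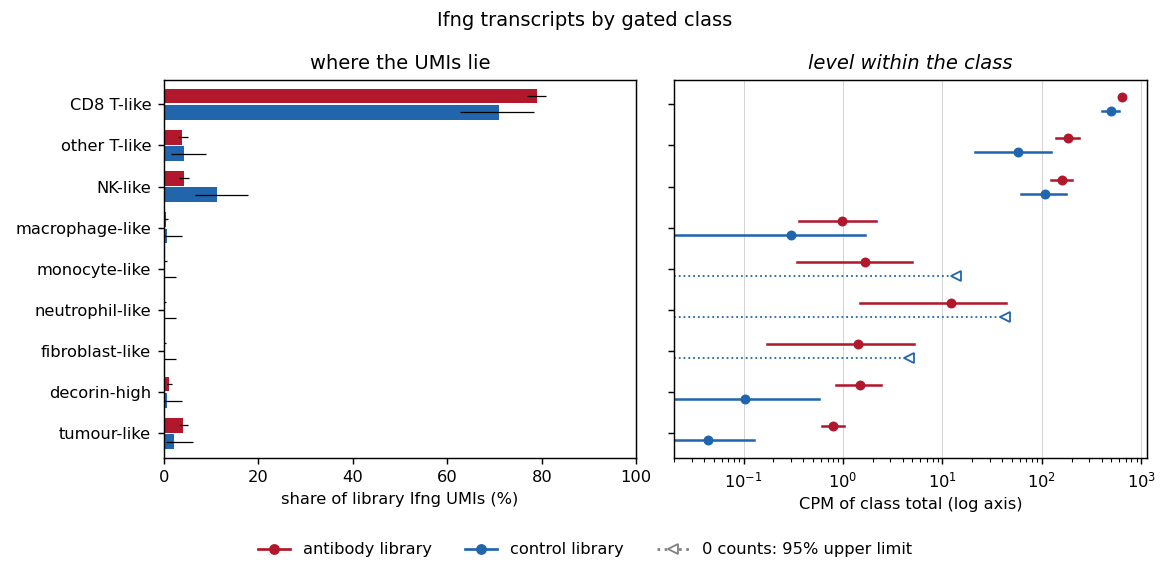
Ifng by gated class in the antibody (red, upper) and control (blue, lower) library. Left, bars give each class's share of the library's Ifng UMIs in percent, with exact binomial 95% intervals; right, points give Ifng CPM of the class total on a log axis with exact Poisson 95% intervals, and open triangles mark the 95% upper limit where the count is 0. CD8 T-like cells hold 78.9% and 70.9% of the UMIs, and the level falls by orders of magnitude outside T-like and NK-like cells.

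There were 512 antibody and 86 control CD8 T-like cells. Their Ifng level was 637 CPM (interval 601 to 674; 1184 counts) in the antibody library and 494 CPM (interval 402 to 601; 100 counts) in the control library, a log2 ratio of 0.36 (interval 0.07 to 0.68). Ifng was detected in 62.3% of antibody and 50.0% of control CD8 T-like cells, whose median depths were 3006 and 1841.5 UMIs. After thinning each cell to 1000 UMIs the shares were 37.0% in 497 antibody cells and 32.1% in 78 control cells, 15 and 8 shallower cells being left out. Per cell, without scaling to depth, CD8 T-like cells held 2.31 Ifng UMIs in the antibody library and 1.16 in the control library. The size of the difference thus depended on the measure, and depth per cell differed in the same direction.

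Ifng was unevenly spread among CD8 T-like cells. The highest single cell held 54 Ifng UMIs in the antibody library and 17 in the control library, and the 10 highest cells held 19.7% of the class's Ifng UMIs in the antibody library and 53.0% in the control library. A single control cell thus held 17 of the 100 control counts. Cells with at least 2 cycling-gene UMIs held 453 CPM in the antibody library and 414.5 CPM in the control library, a log2 ratio of 0.11 (interval -0.35 to 0.64). Cells without stood at 788 CPM in the antibody library and 564 CPM in the control library, a log2 ratio of 0.47 (interval 0.11 to 0.88). Among these non-cycling cells, those with a transcript of Havcr2, an inhibitory receptor of exhausted T cells, held 1000 CPM in 148 antibody cells and 949.7 CPM in 10 control cells. Those without Havcr2 held 612 CPM in 219 antibody cells and 419 CPM in 49 control cells. This split was made after the data were seen and favours deeper cells on the Havcr2 side, where median depth was 2917.5 UMIs in the antibody library and 2674.5 in the control library, against 2233 in antibody and 1560 in control cells without.

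In NK-like cells Ifng stood at 159.5 CPM in the antibody library (64 counts in 206 cells) and 107.1 CPM in the control library (16 counts in 68 cells), a log2 ratio of 0.54 whose interval, -0.23 to 1.46, included 0. The remaining T-like cells were those outside the CD8, CD4 and regulatory classes. They lacked these markers or carried a mix of them, such as Cd8 transcripts with Cd4 or Foxp3. They held 183 CPM in the antibody library (59 counts) and 57.5 CPM in the control library (6 counts), a log2 ratio of 1.57 (interval 0.46 to 3.17). That difference turned to -0.52 when Leiden clusters replaced the gates, so its direction depends on how these cells were delimited. CD4 T-like cells were too few to compare. They held 19 Ifng counts in 47 antibody cells and 12 counts in 6 control cells, with all 12 in 1 cell. Regulatory T-like cells held 5 Ifng counts in 56 antibody cells and 0 in 18 control cells.

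Outside T-like and NK-like cells Ifng was at 1.46 CPM in the antibody library (169 counts) and 0.068 CPM in the control library (7 counts). Cells that passed no gate held 66 antibody and 2 control counts, decorin-high cells 16 antibody and 1 control count, and cells that passed several gates 11 antibody and 0 control counts. Tumour-like cells held 61 UMIs in 3744 antibody cells and 3 in 5436 control cells, 0.798 CPM in the antibody library and 0.0438 CPM in the control library, and no cell held more than 1. An Ifng UMI was found in 1.63% of antibody cells (median depth 18216.5 UMIs) and 0.0552% of control cells (median depth 11454.5 UMIs). After thinning to 1000 UMIs it was found in 0.0539% of 3712 antibody cells and 0 of 5405 control cells, with an upper interval bound of 0.0682% for the control share. Nkg7, a cytotoxic granule gene of T and NK cells, held 406 counts in the antibody and 82 in the control tumour-like cells, and the T cell receptor complex genes used in the gate held 646 counts in the antibody and 113 in the control tumour-like cells. Per 100 Nkg7 UMIs there were 15.02 Ifng UMIs in antibody tumour-like cells, near the 17.2 of antibody CD8 T-like cells. In the control library the ratio was 3.66 in tumour-like cells, on 3 Ifng counts, and 9.91 in CD8 T-like cells. The part of free RNA and of undetected doublets in the tumour-like Ifng counts was not tested. Cells removed as doublets held a further 341 Ifng UMIs in the antibody library and 17 in the control library.

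**Figure D2:**
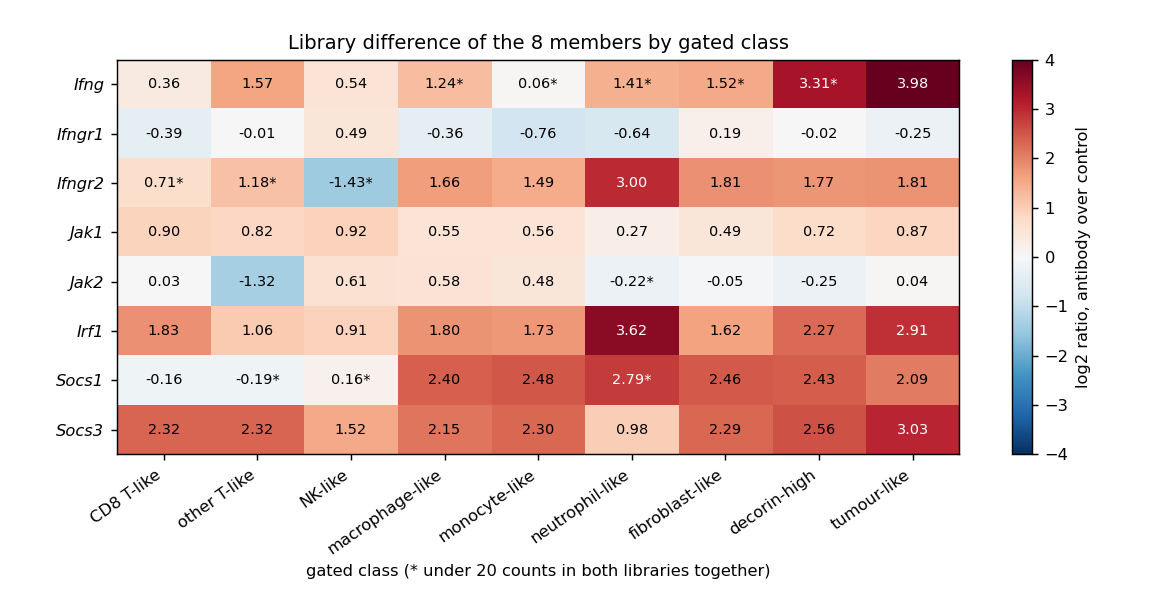
Log2 ratio of CPM, antibody over control, for the 8 genes (rows) in the 9 classes compared (columns), with red for higher and blue for lower in the antibody library and an asterisk where both libraries together hold under 20 counts. Irf1 and Socs3 are red in every class, from 0.91 to 3.62 and from 0.98 to 3.03, while Ifngr1 lies between -0.76 and 0.49.

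The library differences of the 8 genes were read against all genes of the same class with at least 20 counts in both libraries together, and a gene was called at a 2-fold difference. In tumour-like cells 5 of the 8 genes were at least 2-fold higher in the antibody library (Ifng, Ifngr2, Irf1, Socs1 and Socs3, with Ifng on 61 antibody and 3 control counts), where 11.5% of all genes were, and none was lower, against 4.44%. In decorin-high cells 4 of 7 genes past the count minimum were called higher against 9.86% of all genes, and 0 lower against 4.62%. Macrophage-like cells had 4 of 7 called higher against 9.48% and 0 lower against 4.64%, monocyte-like cells 4 of 7 against 12.3% and 0 lower against 7.57%, and fibroblast-like cells 4 of 7 against 9.05% and 0 lower against 5.72%. In these 5 classes the genes called were the same, Ifngr2, Irf1, Socs1 and Socs3, with Ifng called in addition in tumour-like cells.

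CD8 T-like cells had 2 of 7 called higher, Irf1 and Socs3, against 12.9% of all genes, and 0 lower against 7.61%. The remaining T-like cells had 3 of 6 called higher, Ifng, Irf1 and Socs3, against 10.6%. NK-like cells had 1 of 6 called higher, Socs3, against 11.3%, and 0 lower against 5.97%, and their count of higher calls ran from 0 to 4 over the alternatives tried. Neutrophil-like cells had 2 of 5 called higher, Ifngr2 and Irf1, against 15.8%, and 0 lower against 6.38%. A single call went the other way, Jak2 in the remaining T-like cells, where 8.53% of all genes were at least 2-fold lower. The median gene lay between -0.19 and 0.00 on the log2 scale in every class, a centre that scaling to the class total sets. None of the 8 genes was among the 47 of 1184 genes (3.97%) at least 2-fold higher in all 9 classes.

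Ifngr1 (ENSMUSG00000020009; chromosome 10, 19591949 to 19610229, plus strand), the ligand-binding chain, was highest in NK-like and T-like cells and lowest in tumour-like cells, and differed little between the libraries. NK-like cells held 1096 CPM in the antibody library (interval 996 to 1204) and 777 CPM in the control library (interval 642 to 932). The remaining T-like cells held 763 CPM in the antibody library and 766 CPM in the control library, and CD8 T-like cells 318.5 CPM in the antibody library and 415 CPM in the control library. Then came monocyte-like cells with 174 CPM in the antibody library and 293 CPM in the control library, neutrophil-like cells with 141 CPM in the antibody library and 219 CPM in the control library and macrophage-like cells with 98 CPM in the antibody library and 126 CPM in the control library. Decorin-high cells (93.0 CPM in the antibody library and 94.6 CPM in the control library) and fibroblast-like cells (88.7 CPM in the antibody library and 77.2 CPM in the control library) could not be told apart in either library. Tumour-like cells held 37.5 CPM in the antibody library (interval 36.2 to 38.9) and 44.6 CPM in the control library (interval 43.1 to 46.2).

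No class showed a 2-fold difference in Ifngr1. The lowest log2 ratio was -0.76 in monocyte-like cells (interval -1.12 to -0.38) and the highest 0.49 in NK-like cells (interval 0.20 to 0.81). In macrophage-like cells the ratio was -0.36 (interval -0.54 to -0.17) and in tumour-like cells -0.25 (interval -0.32 to -0.18). In CD8 T-like cells it was -0.39 (interval -0.71 to -0.04), and in neutrophil-like cells -0.64 with an interval, -1.58 to 0.32, that included 0. The tumour-like ratio lay close to the class's median gene, -0.16. Regulatory T-like cells, too few to compare, also held high levels, 905 CPM in 56 antibody cells and 1085 CPM in 18 control cells.

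Ifngr2 (ENSMUSG00000022965; chromosome 16, 91547072 to 91565623, plus strand), the signalling chain, was high in macrophage-like and monocyte-like cells of both libraries and scarcely detected in the T-like and NK-like classes compared. CD8 T-like cells held 7 Ifngr2 counts in the antibody library and 0 in the control library, the remaining T-like cells 3 and 0, and NK-like cells 2 and 2. The antibody level in CD8 T-like cells was 3.77 CPM (interval 1.51 to 7.76). The control count of 0 had an upper interval bound of 18.2 CPM, so no fold is given. In NK-like cells the 2 counts of each library gave 4.98 CPM in the antibody library and 13.4 CPM in the control library.

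In each of the other 6 classes compared Ifngr2 was higher in the antibody library. Macrophage-like cells held 102.1 CPM in the antibody library (623 counts) and 32.2 CPM in the control library (107 counts), a log2 ratio of 1.66 (interval 1.37 to 1.98). Monocyte-like cells held 121 CPM in the antibody library and 41.4 CPM in the control library (217 antibody and 11 control counts), a ratio of 1.49 (interval 0.68 to 2.58). Neutrophil-like cells held 134.5 CPM in the antibody library and 11.5 CPM in the control library, but on 22 counts and 1 count, with an interval of 0.92 to 8.92. The myeloid classes could not be told apart from one another in the antibody library, since their intervals overlapped.

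Among stromal and tumour cells the Ifngr2 ratios were close to one another. Fibroblast-like cells held 54.4 CPM in the antibody library and 14.9 CPM in the control library (76 antibody and 12 control counts), a log2 ratio of 1.81 (interval 0.98 to 2.88). Decorin-high cells held 36.4 CPM in the antibody library and 10.7 CPM in the control library, a ratio of 1.77 (interval 1.46 to 2.10). Tumour-like cells held 33.8 CPM in the antibody library and 9.65 CPM in the control library (2584 antibody and 661 control counts), a ratio of 1.81 (interval 1.68 to 1.93). Ifngr2 was detected in 44.5% of antibody and 11.2% of control tumour-like cells, and in 3.66% and 0.925% after thinning to 1000 UMIs, so the shares differed at equal depth too. CD8 T-like cells had an Ifngr2 UMI in 1.37% of antibody cells and 0 of 86 control cells. In cDC1-like cells, a type 1 dendritic class under the cell minimum, 76 counts in 67 antibody cells stood beside 3 counts in 19 control cells.

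**Figure D3:**
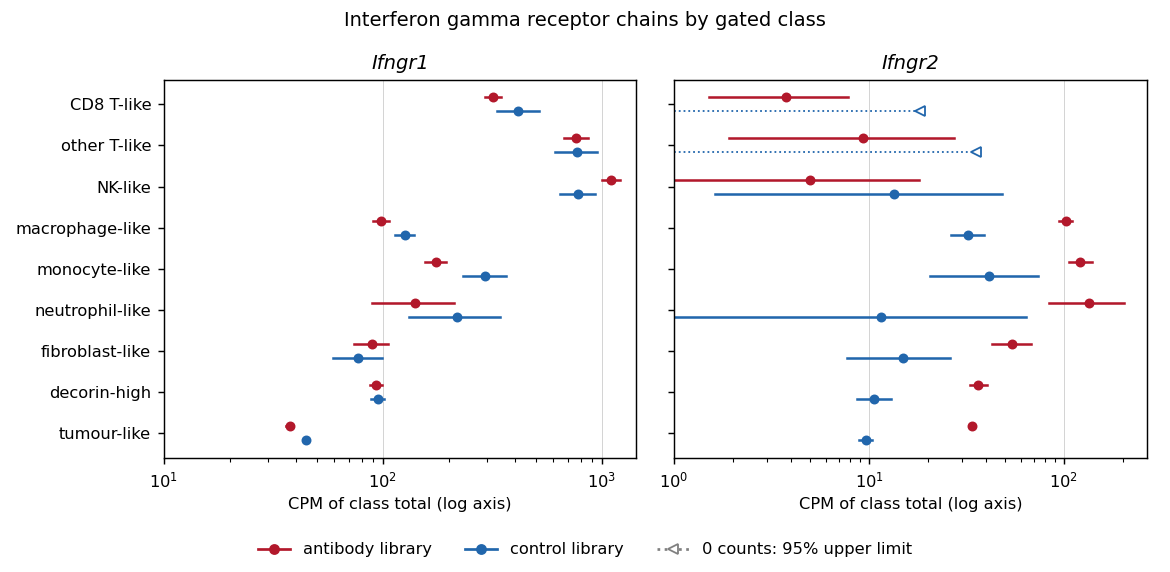
Ifngr1 (left) and Ifngr2 (right) CPM of the class total on log axes by gated class, in the antibody (red, upper) and control (blue, lower) library with exact Poisson 95% intervals; open triangles mark the upper limit of a count of 0. Ifngr1 peaks in NK-like cells at 1096 CPM in the antibody library and 777 CPM in the control library, whereas Ifngr2 is at most 13.4 CPM in the NK-like, CD8 T-like and remaining T-like classes and is higher in the antibody library in the other 6 classes compared.

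The Ifngr2 gene has 3 class II cytokine receptor genes as neighbours on chromosome 16: Ifnar2 and Ifnar1, which encode the type I interferon receptor, and Il10rb, the shared chain of the interleukin 10 and interferon lambda receptors. They were counted within a list of 10 receptor genes. In tumour-like cells 4 of 7 past the count minimum were at least 2-fold higher, against 11.5% of all genes, namely Ifngr2, Ifnar2, Il10rb and Il10ra. Il10ra there held only 85 antibody and 26 control counts, 1.11 CPM in the antibody library and 0.380 CPM in the control library. In macrophage-like cells it stood at 88.2 CPM in the antibody library and 103 CPM in the control library. The part of free RNA in the tumour-like Il10ra counts was not tested. Ifnar2 in tumour-like cells stood at 23.9 CPM in the antibody library and 4.88 CPM in the control library, a log2 ratio of 2.29 (interval 2.12 to 2.46). Il10rb there stood at 13.7 CPM in the antibody library and 5.56 CPM in the control library, a ratio of 1.30. Ifnar1 there stood at 15.9 CPM in the antibody library and 12.8 CPM in the control library, a ratio of 0.32. The difference was thus not uniform across the neighbouring genes. In macrophage-like cells the ratios were 1.66 for Ifnar2, 0.80 for Il10rb and 0.45 for Ifnar1.

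Jak1 (ENSMUSG00000028530; chromosome 4, 101152367 to 101265282, minus strand), the kinase bound to IFNGR1, was moderately higher in the antibody library in all 9 classes and at least 2-fold higher in none. Its log2 ratio ran from 0.27 in neutrophil-like cells (interval -0.58 to 1.24) to 0.92 in NK-like cells (interval 0.51 to 1.37). NK-like cells held the highest level in both libraries, 713 CPM in the antibody library and 375 CPM in the control library. Tumour-like cells held the lowest, 64.2 CPM in the antibody library and 35.2 CPM in the control library, a ratio of 0.87 (interval 0.79 to 0.94). CD8 T-like cells held 318 CPM in the antibody library and 168 CPM in the control library, a ratio of 0.90 (interval 0.42 to 1.46). The order over classes, with NK-like and the remaining T-like cells at the top, resembled that of Ifngr1. Jak1 overlaps Raver2 on the opposite strand, which held 15 counts in the antibody library and 4 in the control library.

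Jak2 (ENSMUSG00000024789; chromosome 19, 29251828 to 29313080, plus strand), the kinase bound to IFNGR2, did not share this direction. In tumour-like cells it stood at 22.0 CPM in the antibody library and 21.4 CPM in the control library, a log2 ratio of 0.04 (interval -0.06 to 0.15). In decorin-high cells it stood at 29.7 CPM in the antibody library and 35.2 CPM in the control library, a ratio of -0.25 (interval -0.47 to -0.02), and in macrophage-like cells at 23.9 CPM in the antibody library and 15.9 CPM in the control library, a ratio of 0.58 (interval 0.12 to 1.07). Fibroblast-like cells were among the highest in both libraries, at 77.3 CPM in the antibody library and 79.7 CPM in the control library. The single called difference, 46.5 CPM in the antibody library and 115 CPM in the control library in the remaining T-like cells, rested on 15 and 12 counts. It turned to 0.31 under a gate with 1 more UMI and to 0.59 with Leiden clusters.

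The other Janus kinases, JAK3 and TYK2, do not serve the interferon gamma receptor. Jak3, the kinase of the common gamma chain, was at least 2-fold higher in the antibody library in macrophage-like cells, 15.9 CPM in the antibody library and 1.20 CPM in the control library (97 antibody and 4 control counts), a log2 ratio of 3.56 (interval 2.32 to 5.63). In tumour-like cells Jak3 stood at 5.74 CPM in the antibody library and 0.905 CPM in the control library. Tyk2, a kinase of the type I interferon and interleukin 12 receptors, was past 2-fold in no class with at least 20 counts, and its ratio in tumour-like cells was -0.46 (interval -0.655 to -0.264).

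Irf1 (ENSMUSG00000018899; chromosome 11, 53770014 to 53778374, plus strand), the transcription factor of the second wave, was higher in the antibody library in all 9 classes and at least 2-fold higher in 8. Neutrophil-like cells held 1627 CPM in the antibody library (interval 1437 to 1834; 266 counts) and 127 CPM in the control library (11 counts), a log2 ratio of 3.62 (interval 2.82 to 4.70). Tumour-like cells held 233 CPM in the antibody library and 30.9 CPM in the control library (17799 antibody and 2117 control counts), a ratio of 2.91 (interval 2.85 to 2.98). Decorin-high cells held 421.5 CPM in the antibody library and 87.3 CPM in the control library, a ratio of 2.27 (interval 2.16 to 2.38). Irf1 was thus the gene of this set with the widest difference in neutrophil-like cells, and among the widest in tumour-like cells.

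Macrophage-like cells held 220.3 CPM of Irf1 in the antibody library and 63.1 CPM in the control library, a log2 ratio of 1.801 (interval 1.59 to 2.02). Monocyte-like cells held 441 CPM in the antibody library and 132 CPM in the control library, a ratio of 1.73 (interval 1.26 to 2.28). Fibroblast-like cells held 174 CPM in the antibody library and 56.0 CPM in the control library, a ratio of 1.62 (interval 1.17 to 2.13). In the lymphoid classes the intervals of the Irf1 ratio overlapped. CD8 T-like cells held 361 CPM in the antibody library and 98.9 CPM in the control library (671 antibody and 20 control counts), a ratio of 1.83 (interval 1.23 to 2.59). The remaining T-like cells held 347 CPM in the antibody library and 163 CPM in the control library, a ratio of 1.06 (interval 0.35 to 1.92), and NK-like cells 344 CPM in the antibody library and 181 CPM in the control library, a ratio of 0.91 (interval 0.32 to 1.58).

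In the control library Irf1 was lowest in tumour-like cells. NK-like and the remaining T-like cells had the highest control values, but their intervals overlapped those of monocyte-like, neutrophil-like and CD8 T-like cells. In the antibody library Irf1 was highest in neutrophil-like cells and lowest in fibroblast-like cells. Irf1 was detected in 77.8% of antibody and 25.9% of control tumour-like cells, and in 17.9% and 3.18% after thinning to 1000 UMIs. In macrophage-like cells the thinned shares were 17.9% in the antibody library and 3.63% in the control library. The macrophage-like class was held mostly by different Leiden clusters in the 2 libraries, 1 with 829 antibody and 13 control cells and another with 93 antibody and 804 control cells. The decorin-high cells likewise lay mostly in 1 cluster with 1113 antibody and 19 control cells and another with 17 antibody and 1645 control cells, and every tumour-like cluster was mostly of 1 library. Gm17334 lies on the opposite strand of the Irf1 locus and held 1074 counts in the antibody library and 155 in the control library, against 38342 in the antibody library and 5250 in the control library for Irf1. The strand setting of the counting is not given in the sources used here, so reads of this pair may not be fully separated.

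**Figure D4:**
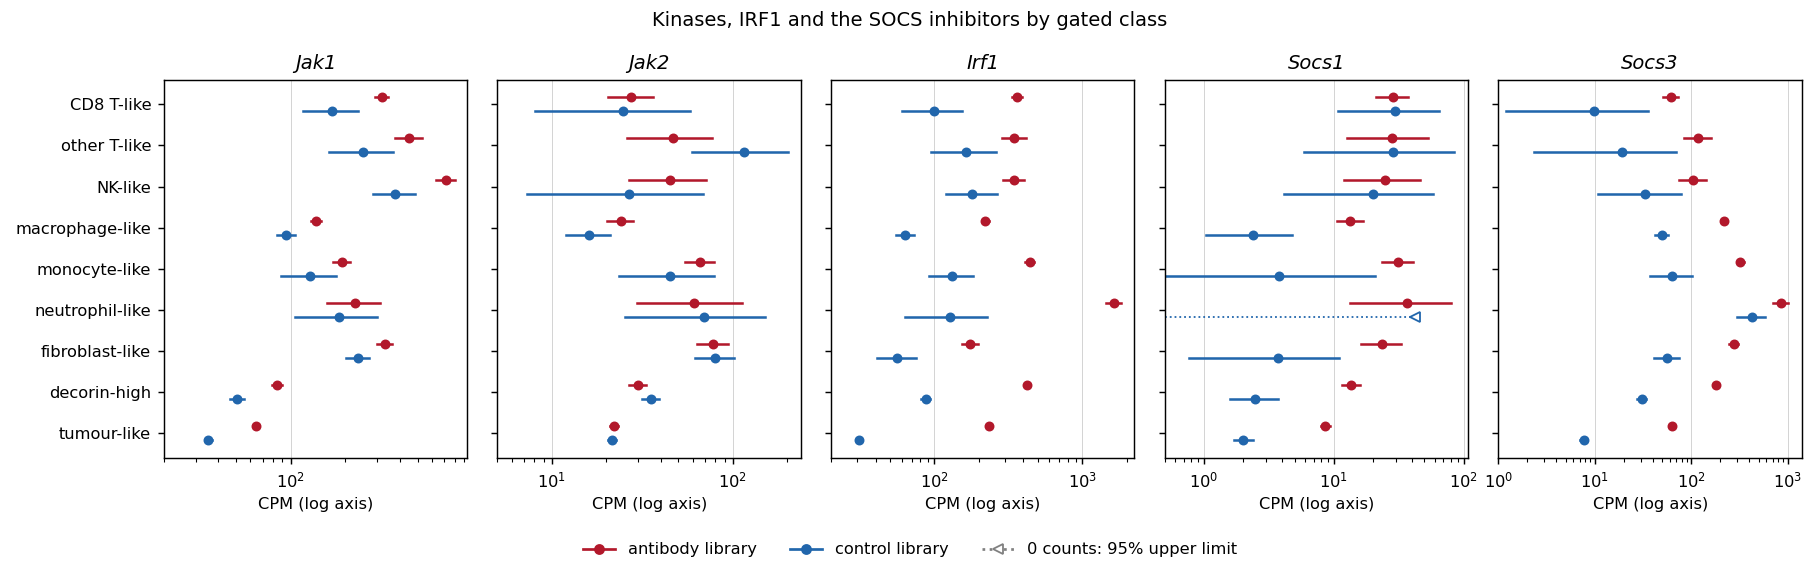
CPM of the class total on log axes for Jak1, Jak2, Irf1, Socs1 and Socs3 by gated class, in the antibody (red, upper) and control (blue, lower) library with exact Poisson 95% intervals; the open triangle marks the upper limit of a count of 0. Irf1 and Socs3 points of the antibody library lie right of the control points in every class, Socs1 intervals overlap in CD8 T-like, remaining T-like and NK-like cells, and Jak2 points largely overlap.

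The promoters of Irf1 and of both SOCS genes are shown. These 3 genes and Ifngr2 were called higher together in tumour-like, decorin-high, fibroblast-like, macrophage-like and monocyte-like cells. The windows of RefSeq (GRCm38.p6), 250 bases before to 50 after each start, were matched for all 8 genes and searched for the GAS letters TTCNNNGAA, which read the same on both strands, and for the interferon-stimulated response element (ISRE) core, GAAA, any 2 bases and GAAA again, on both strands. GAS letters were found in 8.3% of 32851 promoters and the ISRE core in 3.44%. Irf1 held 1 GAS match starting 90 bases before the start, Socs3 held 1 starting 154 bases before, and Ifng held 1, TTCAGAGAA, starting 249 bases before. Socs1 held 2 overlapping ISRE core matches on the strand of the gene, starting 83 and 77 bases before the start. Ifngr2 held no GAS or ISRE core match, and its promoter is not printed. Ifngr1, Jak1 and Jak2 held none either. A match describes letters and is not evidence of binding. The 250 bases before the start are printed 5′ to 3′ on the strand of the gene, with the matches in capitals.
Irf1 promoter, GRCm38.p6 chr11:53769764-53770013, plus strand, GAS letters in capitals: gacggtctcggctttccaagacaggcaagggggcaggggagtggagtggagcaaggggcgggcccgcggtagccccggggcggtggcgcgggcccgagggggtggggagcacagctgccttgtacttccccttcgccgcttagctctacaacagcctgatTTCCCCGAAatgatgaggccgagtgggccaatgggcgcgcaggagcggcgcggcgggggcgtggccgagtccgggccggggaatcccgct
Socs1 promoter, GRCm38.p6 chr16:10785537-10785786, minus strand, ISRE core letters in capitals: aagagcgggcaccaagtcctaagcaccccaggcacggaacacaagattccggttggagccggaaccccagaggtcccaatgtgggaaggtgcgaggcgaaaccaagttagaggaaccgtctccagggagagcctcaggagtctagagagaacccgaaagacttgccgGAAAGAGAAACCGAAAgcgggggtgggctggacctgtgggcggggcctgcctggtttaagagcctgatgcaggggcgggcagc
Socs3 promoter, GRCm38.p6 chr11:117969367-117969616, minus strand, GAS letters in capitals: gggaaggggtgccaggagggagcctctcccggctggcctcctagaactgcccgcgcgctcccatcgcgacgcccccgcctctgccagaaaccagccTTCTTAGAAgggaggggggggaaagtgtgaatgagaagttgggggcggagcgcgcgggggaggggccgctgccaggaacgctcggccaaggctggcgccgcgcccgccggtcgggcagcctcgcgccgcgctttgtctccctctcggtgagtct

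Socs1 (ENSMUSG00000038037; chromosome 16, 10782240 to 10785536, minus strand), the inhibitor of JAK kinases, was called higher in the antibody library in macrophage-like, monocyte-like, fibroblast-like, decorin-high and tumour-like cells. In lymphoid cells the control counts were too few to separate the libraries. In CD8 T-like cells it stood at 28.5 CPM in the antibody library and 29.7 CPM in the control library (53 antibody and 6 control counts), a log2 ratio of -0.16 (interval -1.27 to 1.45). In the remaining T-like cells there were 9 antibody and 3 control counts, and in NK-like cells 10 antibody and 3 control counts. The control level of these classes, 20.1 to 29.7 CPM, was above that of the other classes compared that had a control count, at most 3.76 CPM.

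In macrophage-like cells Socs1 stood at 13.4 CPM in the antibody library and 2.40 CPM in the control library (82 antibody and 8 control counts), a log2 ratio of 2.40 (interval 1.44 to 3.74). In decorin-high cells it stood at 13.6 CPM in the antibody library and 2.49 CPM in the control library (146 antibody and 24 control counts), a ratio of 2.43 (interval 1.83 to 3.14). In tumour-like cells it stood at 8.60 CPM in the antibody library and 2.01 CPM in the control library (658 antibody and 138 control counts), a ratio of 2.09 (interval 1.83 to 2.37). The control level was low in all 3 classes, and monocyte-like cells (56 counts and 1 count, interval 0.52 to 8.39) and fibroblast-like cells (33 antibody and 3 control counts, interval 0.99 to 5.01) differed in the same direction on very few control counts. The contrast between lymphoid and other cells was not tested, since the control lymphoid counts were so few.

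Socs3 (ENSMUSG00000053113; chromosome 11, 117966079 to 117970047, minus strand), the inhibitor of gp130-type receptors, was higher in the antibody library in all 9 classes and at least 2-fold higher in 8. Neutrophil-like cells held the highest level in both libraries, 850 CPM in the antibody library (139 counts) and 426 CPM in the control library (37 counts), and this was the smallest difference, a log2 ratio of 0.98 (interval 0.47 to 1.56). Tumour-like cells held 62.6 CPM in the antibody library and 7.65 CPM in the control library (4790 antibody and 524 control counts), the widest difference, a ratio of 3.03 (interval 2.90 to 3.17). Decorin-high cells held 181 CPM in the antibody library and 30.7 CPM in the control library, a ratio of 2.56 (interval 2.39 to 2.74). The class with most Socs3 at control thus differed least and the class with least differed most, but the control level is also the divisor of the ratio. Between these extremes the ratios did not follow the control level. CD8 T-like cells with 9.89 CPM at control had a ratio of 2.32, and monocyte-like cells with 64.0 CPM had 2.30.

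Macrophage-like cells held 222 CPM of Socs3 in the antibody library and 49.9 CPM in the control library, a log2 ratio of 2.15 (interval 1.92 to 2.39). Monocyte-like cells held 324 CPM in the antibody library and 64.0 CPM in the control library, a ratio of 2.30 (interval 1.65 to 3.13), and fibroblast-like cells 276 CPM in the antibody library and 56.0 CPM in the control library, a ratio of 2.29 (interval 1.85 to 2.78). In T-like and NK-like cells the control counts were 2, 2 and 5, beside 114, 38 and 42 in the antibody library, and the log2 ratios of 2.32, 2.32 and 1.52 had intervals of 0.75 to 5.70, 0.67 to 5.72 and 0.31 to 3.34. Unlike Socs1, Socs3 was therefore higher also in CD8 T-like cells, though on 2 control counts.

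Within the SOCS list of 8 genes, Socs1 and Socs3 stood apart from the rest. In tumour-like cells 3 of 8 were at least 2-fold higher, Socs1, Socs3 and Cish, against 11.5% of all genes, and none was lower, against 4.44%. Cish, an inhibitor of STAT5 signalling, stood there at 0.758 CPM in the antibody library and 0.263 CPM in the control library (58 antibody and 18 control counts). Socs2, Socs4, Socs5, Socs6 and Socs7 lay between -0.33 and 0.63 in tumour-like cells and between -0.62 and 0.49 in macrophage-like cells. In macrophage-like, monocyte-like and decorin-high cells Socs1 and Socs3 were the only 2 of the list called. Of all genes 9.48% were at least 2-fold higher in macrophage-like, 12.3% in monocyte-like and 9.86% in decorin-high cells.

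Among the STAT transcription factors, Stat2, which acts downstream of type I interferon, stood in tumour-like cells at 67.6 CPM in the antibody library and 19.6 CPM in the control library, a log2 ratio of 1.79, and in macrophage-like cells at 92.6 CPM in the antibody library and 75.7 CPM in the control library, a ratio of 0.29. Stat3, used by gp130 receptors, was highest in lymphoid cells, 1035 CPM in the antibody library and 825 CPM in the control library in CD8 T-like cells, and was past 2-fold in no class. Stat4, the interleukin 12 factor that drives Ifng, was carried by NK-like cells at 421 CPM in the antibody library and 200.9 CPM in the control library (169 antibody and 30 control counts), a ratio of 1.05 (interval 0.50 to 1.68), and by CD8 T-like cells at 238 CPM in the antibody library and 168 CPM in the control library. In tumour-like cells Stat4 held 80 antibody and 15 control counts, beside the 406 antibody and 82 control counts of Nkg7 given above.

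Among the 9 interferon regulatory factors, Irf8 was called higher beside Irf1 in CD8 T-like, macrophage-like, monocyte-like, neutrophil-like and fibroblast-like cells. In CD8 T-like cells Irf8 stood at 846 CPM in the antibody library and 410 CPM in the control library. The 7 macrophage markers kept out of the gates stood there at 98.99 CPM in the antibody library and 29.7 CPM in the control library. In macrophage-like cells these markers stood at 7306 CPM in the antibody library and 5372 CPM in the control library. In fibroblast-like cells they stood at 115.9 CPM in the antibody library and 28.6 CPM in the control library. Irf8 held 30 antibody and 0 control counts there. The part of macrophage transcripts in the Irf8 calls was not tested. Irf8, a factor of myeloid and dendritic lineages, stood in monocyte-like cells at 623 CPM in the antibody library and 113 CPM in the control library, a log2 ratio of 2.44 (interval 1.94 to 3.04). In macrophage-like cells Irf8 stood at 446 CPM in the antibody library and 193.5 CPM in the control library, a ratio of 1.20 (interval 1.08 to 1.33), and in NK-like cells, where it was highest, at 2238 CPM in the antibody library and 1473 CPM in the control library, a ratio of 0.60. Irf7, the factor of the type I interferon response, went the other way in monocyte-like cells, 486 CPM in the antibody library and 1019 CPM in the control library, a ratio of -1.07 (interval -1.27 to -0.87), and stood at 109 and 61.9 CPM in tumour-like cells, a ratio of 0.82. Irf2 lay between -0.44 and 0.67 in the 9 classes. In tumour-like cells 4 of 8 factors past the count minimum were called higher, against 11.5% of all genes, and none lower, against 4.44%.

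A list of 25 genes known as interferon gamma targets, which includes Irf1 and Socs1, was read in the same way. The parts of interferon gamma and of type I interferon in their differences were not tested. In tumour-like cells 23 of 25 were at least 2-fold higher, against 11.5% of all genes, with a median log2 ratio of 2.96 beside a median of -0.16 over all genes tested. In decorin-high cells 23 of 25 were called against 9.86%, with a median of 2.73, in neutrophil-like cells 16 of 18 against 15.8% (2.84) and in fibroblast-like cells 19 of 23 against 9.05% (2.08). In macrophage-like cells 16 of 24 were called against 9.48% (1.55) and in monocyte-like cells 14 of 24 against 12.3% (1.16). In CD8 T-like cells 6 of 23 were called against 12.9% of all genes (median 0.26), and in NK-like cells 2 of 20 against 11.3% (-0.03). In the remaining T-like cells 6 of 21 were called higher against 10.6% (-0.04), and 1 was lower, where 8.53% of all genes were. The list's median lay above 1 in the 6 myeloid, stromal and tumour classes and below 0.3 in the 3 lymphoid classes.

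Tap1, a peptide transporter subunit, stood in tumour-like cells at 130.3 CPM in the antibody library and 16.8 CPM in the control library, a log2 ratio of 2.96, and in NK-like cells at 112 CPM in the antibody library and 107.1 CPM in the control library, a ratio of 0.04. The gene of the checkpoint ligand PD-L1, Cd274, stood in tumour-like cells at 60.2 CPM in the antibody library and 4.98 CPM in the control library, a ratio of 3.59, and in CD8 T-like cells at 90.4 CPM in the antibody library and 84.0 CPM in the control library, a ratio of 0.07. Among the 6 genes called in CD8 T-like cells were Cxcl9 (46 antibody and 0 control counts) and Cd74 (413 antibody and 5 control counts), whose levels were far higher in macrophage-like and monocyte-like cells. In macrophage-like cells Cxcl9 stood at 1580 CPM in the antibody library and 67.3 CPM in the control library. The part of free RNA in those lymphoid counts was not tested.

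**Figure D5:**
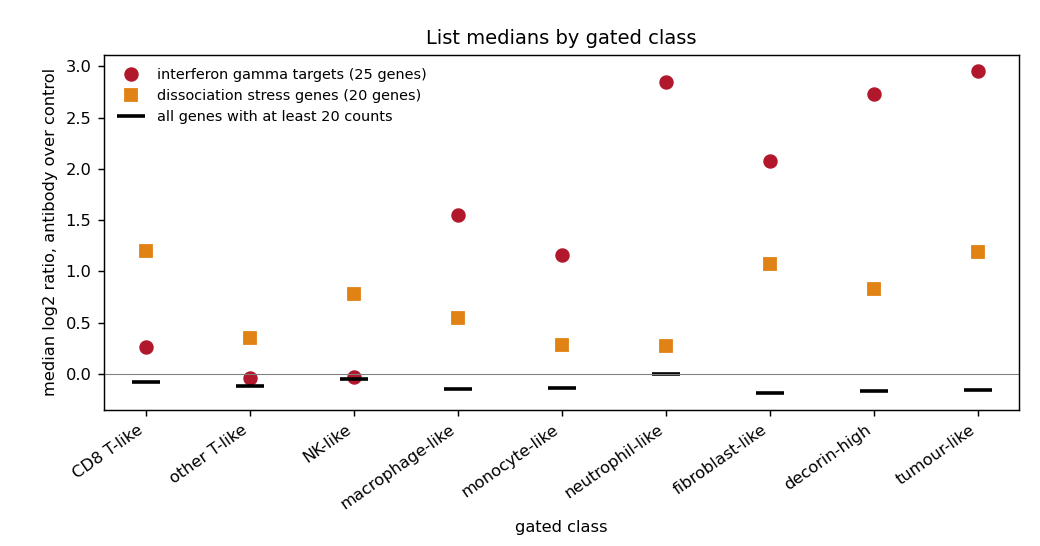
Median log2 ratio, antibody over control, in each of the 9 classes for the interferon gamma target list (circles) and the dissociation stress list (squares), with the median of all genes with at least 20 counts as a black bar. Target medians lie between 1.16 and 2.96 in myeloid, stromal and tumour classes and between -0.04 and 0.26 in lymphoid classes, while stress medians lie above the bar in every class.

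A list of 20 genes known to respond to tissue dissociation, which also include immediate early genes of many signals, was higher in the antibody library too, but not in the same order of classes as the targets. It was called higher for 12 of 20 genes in CD8 T-like cells against 12.9% of all genes, 11 of 20 in tumour-like cells against 11.5%, 10 of 19 in fibroblast-like cells against 9.05%, 8 of 19 in decorin-high cells against 9.86% and 7 of 20 in macrophage-like cells against 9.48%. In monocyte-like cells 8 of 20 were called higher against 12.3%, and in NK-like cells 7 of 17 against 11.3%. In neutrophil-like cells 8 of 17 were called higher against 15.8%, and 1 lower against 6.38%. In the remaining T-like cells 6 of 17 were called higher against 10.6%, and 1 lower against 8.53%. Its median was 1.20 in CD8 T-like and 0.27 in neutrophil-like cells, where the target medians were 0.26 and 2.84. Junb stood in CD8 T-like cells at 1805 CPM in the antibody library and 44.5 CPM in the control library, and in tumour-like cells at 1110 CPM in the antibody library and 27.7 CPM in the control library, a log2 ratio of 5.33. Nfkbia stood in tumour-like cells at 1874 CPM in the antibody library and 355 CPM in the control library, a ratio of 2.40. The list was not uniform: Fos stood there at 1189 CPM in the antibody library and 1423 CPM in the control library, a ratio of -0.26, and Egr1 had a ratio of 0.12. Irf1 and Socs3, both known to be rapidly inducible, were higher in the same 9 classes as Junb and Nfkbia, and the part of dissociation stress in their differences was not tested.

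Of 9 other inhibitors of JAK-STAT signalling, Ptpn1, a phosphatase acting on JAK2 and TYK2, was higher in the antibody library in all 9 classes. Its log2 ratio ran from 0.76 in fibroblast-like cells to 2.37 in the remaining T-like cells, and in CD8 T-like cells it stood at 314 CPM in the antibody library and 69.2 CPM in the control library (583 antibody and 14 control counts). Usp18, a restraint on the type I interferon receptor, was lower in lymphoid cells, 53.3 CPM in the antibody library and 143 CPM in the control library in CD8 T-like cells, a ratio of -1.45 (interval -2.04 to -0.78). It was also lower in monocyte-like cells, a ratio of -1.32 (interval -1.77 to -0.83), and in macrophage-like cells, a ratio of -0.51. Its ratio was 0.79 in fibroblast-like cells and 0.28 in neutrophil-like cells, where the interval included 0. In tumour-like cells Usp18 stood at 80.5 CPM in the antibody library and 51.4 CPM in the control library, a ratio of 0.65. Ptpn6, a haematopoietic phosphatase, was lower in CD8 T-like cells as well, 166 CPM in the antibody library and 430 CPM in the control library, a ratio of -1.38. These inhibitors thus did not share one direction within the lymphoid classes.

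Genes with the most similar pattern over the 18 class sums were sought among 13298 genes by Pearson's r of log2(CPM + 1), which is a description, since the sums share libraries and class composition. Ifng was closest to Nkg7 (r = 0.981), Gstp3 (0.977) and Klrc2 (0.976), and Ifngr1 to Traf3ip3 (0.943), Ankrd44 (0.942) and Mysm1 (0.937). Ifngr2 had Fbxo30 (0.847) and Hdac5 (0.847) among its closest genes, and Jak1 was closest to Cdc42ep3 (0.888), Nr4a3 (0.884) and Iqgap2 (0.872), and Jak2 to Maml1 (0.79), Zfp281 (0.772) and Atp11a (0.738). Irf1 was closest to Irgm2 (0.949), Igtp (0.902) and Gbp5 (0.881), which are all on the target list. Socs1 was closest to Ccnl2 (0.888), Pigx (0.88) and Rsbn1l (0.865), and Socs3 to Riok3 (0.917), Chmp4b (0.884) and Flot1 (0.877).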

How the data were processed

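The deposited tables hold raw UMI counts for each gene in each barcode. Cell Ranger 7.2.0, Seurat and the mm10 build are named for them, per the submitters' processing notes. A gene absent from 1 table was taken as 0. A cell was kept with 200 or more genes, 500 or more UMIs and a mitochondrial share below 20%. Scrublet (scanpy 1.11.5) scored doublets, of which the top 0.8% for every 1000 cells were taken out (9.65% of antibody and 11.1% of control cells). Cells were gated on marker transcripts, with thresholds set after the data were seen, and free RNA was not corrected.

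Counts were summed per class and library and scaled to CPM of the class total. Log2 ratios used a prior count of 0.5. A call was a 2-fold difference with at least 20 counts, without a test. Counts were thinned to 1000 UMIs per cell for shares. The ratio code was tested on simulated data. The genes and lists were chosen with earlier results of these data known. All 8 genes are named, and 2 to 4 genes of each list by largest ratio or level, others as contrasts chosen after their values were seen. Gene positions are from GENCODE M21 (GRCm38). Clustering used leidenalg 0.10.2 at resolution 1 with 2000 variable genes, 30 components and 15 neighbours, run with scipy 1.17.1, numpy 2.4.6, matplotlib 3.10.9, pandas 2.3.3 and Python 3.11.15. Alternatives were a stricter cell filter, no doublet removal, a stricter gate, Leiden clusters, thinned cells, totals that left out mitochondrial, ribosomal and haemoglobin genes, scaling by the median of ratios, means over scaled cells and, added after seeing the data, ratios minus the class median. Some items are not reported here.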

Additional observations from a re-analysis of the deposited data

How the results depend on the processing

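No paired analysis was possible because each group has 1 library. Of 30 calls of a gene in a class, the direction was the same for 30 of 30 with no doublet removal, means over scaled cells, median-of-ratios scaling, totals that left out mitochondrial, ribosomal and haemoglobin genes and ratios minus the class median, for 29 of 30 with a gate with 1 more UMI, for 28 of 30 with Leiden clusters, and for 28 of the 28 with a value under the stricter cell filter and with thinned cells, where neutrophil-like cells were too few. The reversed values were Ifng in the remaining T-like cells with Leiden clusters (-0.52) and Jak2 there with a gate with 1 more UMI (0.31) and with Leiden clusters (0.59). Ratios still at least 2-fold numbered 29 of 30 with no doublet removal, 27 of 30 with a gate with 1 more UMI and 27 of 30 with Leiden clusters. They numbered 26 of 28 with thinned cells, 28 of 28 under the stricter cell filter and 30 of 30 with the other alternatives. The share of Ifng UMIs in T-like and NK-like cells was 83.1% in the antibody library with no doublet removal and 92.5% with thinned cells, and 100% in the control library with thinned cells. Genes at least 2-fold higher in NK-like cells, 1 as reported, numbered 4 with no doublet removal, 0 with a gate with 1 more UMI, 3 with Leiden clusters and 3 with median-of-ratios scaling. The count in the remaining T-like cells, 3 as reported, was 1 with Leiden clusters. With thinned cells it was 2 in fibroblast-like and 2 in decorin-high cells, where 4 were reported. The cause was not tested for any of these. Low control counts in lymphoid and neutrophil-like cells limit what can be separated there. With at least 100 counts in place of 20, between 7.91% and 12% of all genes were at least 2-fold higher in the 9 classes, where 9.05% to 15.8% were reported.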

Other observations

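Transcripts of cytokines that induce Ifng were found in myeloid, dendritic, stromal and tumour classes. Il12b, which encodes the shared subunit of interleukins 12 and 23, held 42 UMIs in 12 of 924 antibody macrophage-like cells and 1 UMI in 815 control macrophage-like cells. It was far denser in dendritic classes, with 33 UMIs in 6 of 19 antibody and 39 UMIs in 4 of 11 control migratory dendritic-like cells, 408 CPM in the antibody library and 1266 CPM in the control library, and 74 UMIs in 4 of 67 antibody and 9 UMIs in 1 of 19 control cDC1-like cells. Its receptor chain gene Il12rb2 stood in NK-like cells at 463.5 CPM in the antibody library and 200.9 CPM in the control library (186 antibody and 30 control counts), a log2 ratio of 1.19 (interval 0.64 to 1.81), and in CD8 T-like cells at 216 CPM in the antibody library and 124 CPM in the control library, a ratio of 0.78 (interval 0.22 to 1.45). Il18r1, a chain of the interleukin 18 receptor, stood in NK-like cells at 384 CPM in the antibody library and 241 CPM in the control library, a ratio of 0.66. Il15, a survival cytokine of NK and memory T cells, stood in macrophage-like cells at 48.7 CPM in the antibody library and 39.1 CPM in the control library, a ratio of 0.31 (interval 0.02 to 0.63). Its level was highest in neutrophil-like cells, 581 CPM in the antibody library and 426 CPM in the control library, a ratio of 0.44 (interval -0.11 to 1.04). The Il15 ratio was 0.84 in tumour-like cells (interval 0.75 to 0.93), 0.62 in decorin-high cells and -0.33 in fibroblast-like cells (interval -1.14 to 0.52). Il12a, which encodes another interleukin 12 subunit, held at most 5 counts in either library of any class compared. The Il18 ratio was -0.96 in monocyte-like cells (interval -1.47 to -0.38) and -0.34 in tumour-like cells. It was 0.20 in macrophage-like cells, where the interval included 0, and 1.95 in fibroblast-like cells on 23 antibody and 3 control counts.

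A list of 13 genes of gp130-type cytokines, related cytokines and their receptors held differences in both directions. In macrophage-like cells Il10, an anti-inflammatory cytokine, stood at 69.3 CPM in the antibody library and 28.8 CPM in the control library, a log2 ratio of 1.26, and Osm, a gp130 ligand, at 148 CPM in the antibody library and 260 CPM in the control library, a ratio of -0.82. In fibroblast-like cells Il11 stood at 62.3 CPM in the antibody library and 195.5 CPM in the control library, a ratio of -1.65, while in tumour-like cells it stood at 95.1 CPM in the antibody library and 57.1 CPM in the control library, a ratio of 0.73. Of the 12 genes past the count minimum in tumour-like cells, 3 were at least 2-fold higher, against 11.5% of all genes, and of 9 in fibroblast-like cells 1 was at least 2-fold lower, against 5.72%.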
